A study of Mus musculus with 12 samples.

Results

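The comparison is of Vdr-knockout with wild-type colonic organoids while calcitriol, the hormone that binds the vitamin D receptor, was present. Its members are the 3 arrays of VDR KO cultures given calcitriol and the 3 arrays of wild type cultures given calcitriol, chosen by their labels, and make up 6 of the 12 arrays of the series. It asks what the organoids lack without the receptor when the hormone is there. The organoids were grown in a gel from colon crypts, as cultures enriched in stem cells, from 3 knockout and 3 wild-type C57BL/6 mice, and each mouse gave 1 array per treatment. The knockout calcitriol, wild-type calcitriol, knockout vehicle and wild-type vehicle groups have 3 arrays each. Calcitriol, named 1,25(OH)2D3 in the labels, was given at 100 nM and again every 48 h, and vehicle was ethanol. The duration is 72 h in the series design and 62 h in the sample descriptions. In both genotypes, replicates 1, 2 and 3 are labelled as mice of 2, 3 and 2 months, 1 male and 2 female. The labels give neither how the Vdr allele was made nor which cells lack it.

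The vitamin D receptor is a nuclear receptor. With calcitriol bound it pairs with a retinoid X receptor on response elements in DNA and raises or lowers transcription of nearby genes. In the gut its known target genes include those for the enzyme that breaks calcitriol down and for proteins that carry calcium across the epithelium.

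RNA was measured on 1-colour Agilent arrays. Levels below are log2 of the processed signal minus the 75th percentile of that array, so a gene at 0 lies at that percentile, and values of 3 arrays are in the order of replicates 1, 2 and 3. The 75th percentile signal was 588.5 to 759.1 in the knockout and 703.8 to 791.4 in the wild-type calcitriol arrays. Of the spots, 62.2% to 64.2% were well above background in knockout and 62.9% to 65.8% in wild type. All 10 defining genes of colonic epithelium, among them Cdx2, Vil1, Krt20 and Muc2, were above background on all 6 arrays. Of 21 immune cell genes on the array, 9 were above background on all 3 knockout arrays and 11 on all 3 wild-type arrays, and their summed linear level was 14.4 to 29.2 in knockout and 18.7 to 24.2 in wild type. For 18 fibroblast and smooth muscle genes the sum was 2.83 to 3.99 in knockout and 3.99 to 4.29 in wild type, while for the epithelial genes it was 790.5 to 911.0 in knockout and 750.4 to 971.1 in wild type. The pan-leukocyte gene Ptprc stood at -6.47 to -5.30 in knockout and -5.84 to -5.20 in wild type. Cd3e, another immune cell gene, went the other way and was above background on all 6 arrays. Its highest level was 0.05 in knockout and -0.3 in wild type, so immune signal was not absent. The Y-linked gene Ddx3y was at 0.75 and 0.59 in knockout and wild-type replicate 2, both labelled female. It was at -8.18 to -7.60 on the remaining 4 arrays, 2 of them labelled male, so the sex labels of replicates 1 and 2 are contradicted in both genotypes.

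Vdr, the targeted gene, stood at -0.43, -0.20 and 0.37 in knockout and at 1.07, 0.82 and 1.18 in wild-type organoids under calcitriol. The groups did not overlap, and every knockout array lay below every wild-type array. The difference was -1.11 (SE 0.23, n = 3 and 3) and did not pass over all genes in limma (adjusted p = 0.282). With the replicate number as a block it passed (adjusted p = 0.0456), but not without replicate 1 or 2 (0.223 and 0.11). Every knockout array still had Vdr signal above background, and the sources used here do not say which exons were removed, so the probe checks the labels only in part.

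Loss of the receptor under calcitriol went with lower rather than higher levels among the genes that passed. Of 24113 genes, 46 were lower in knockout (0.191%) and 4 were higher (0.0166%) at an adjusted p under 0.05 in limma. In the knockout cultures 34 of the 46 were above background on all 3 arrays, 5 on some and 7 on none, so most of these genes were lower, not undetected. The fitted differences of the 46 had a median of -2.77 on the log2 scale, while the median of all genes was 0.01. With the 7 undetected genes at the bound that the lowest signal above background allows, the median was -2.66, 44 were at least 2-fold lower and 12 at least 16-fold. At an unadjusted p under 0.05 the split was more even, with 485 lower and 425 higher, and 3.73% of all genes lay without overlap lower in knockout and 3.72% higher. With the replicate number as a block, 115 genes were lower (0.477%) and 18 higher (0.0746%), and these hold all 46 and all 4.

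Slide and single arrays bear on the count of lower genes. Knockout replicate 3 was on another slide than the other 5 calcitriol arrays, and 17 genes were lower within the slide of 5, 16 of them among the 46. That fit is the same as the one without knockout replicate 3. In it slide and the loss of 1 array cannot be told apart. With slide as a block over all 12 arrays, 31 of the 46 passed. Without knockout replicate 1, 2 or 3 the count was 26, 23 and 17, and without wild-type replicate 1, 2 or 3 it was 16, 15 and 32. The count of higher genes was 2, 3 and 2 without each knockout array and 2, 1 and 2 without each wild-type array. All 46 stayed below 0 without any 1 array, and 12 kept their call in all 6 such fits. These are Cyp24a1, S100g, C2cd4b, C2cd4a, Adh6a, Pla2g3, Gdpd5, Cebpd, Atp2b1 and the unnamed transcripts AK017151, NR_003627 and the one at chr3:90425270-90435820 (mm9, forward strand).

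**Figure D1:**
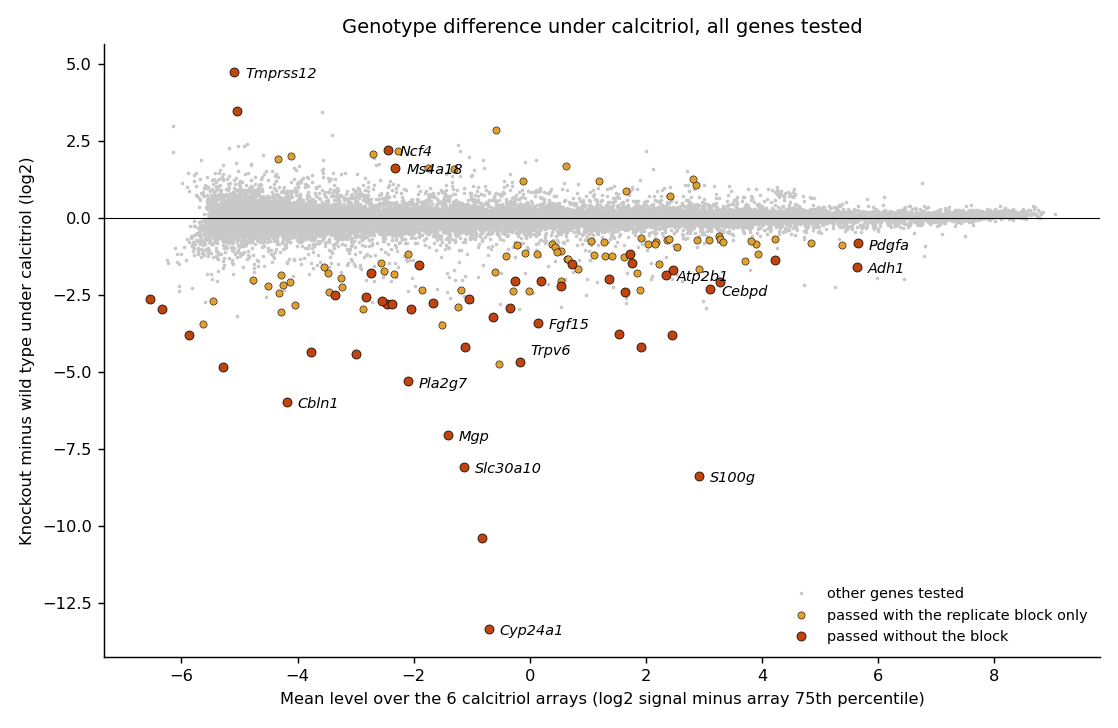
Each point is 1 of 24113 genes. The x axis is the mean level over the 6 calcitriol arrays (log2 signal minus the array's 75th percentile) and the y axis is knockout minus wild type under calcitriol (log2). Red points passed in limma and orange points passed only with the replicate number as a block; the 46 red points below 0 reach -13.36 (Cyp24a1), and the 4 above 0 reach 4.76 (Tmprss12), both fitted values against arrays where the gene was not above background.

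Cyp24a1, which encodes the enzyme that inactivates calcitriol, had the largest difference of all genes that passed. It stood at -6.25, -8.18 and -7.72 in knockout and at 5.59, 5.88 and 6.45 in wild-type organoids under calcitriol. No knockout array had it above background and all 3 wild-type arrays did, so the groups lie far apart. Set against the lowest signal counted as above background, it was at least 3821-fold lower in knockout (adjusted p = 3.87e-05). Cubn, the receptor for endocytosis of vitamin D with its binding protein in kidney, was at 1.68, 0.37 and 0.80 in knockout and 3.49, 2.22 and 2.46 in wild type. Its difference of -1.77 (SE 0.41) passed only with the replicate block (adjusted p = 0.00106, and 0.383 without), and that call was kept without any 1 replicate number. Cyp27b1, which makes calcitriol, was at -5.30 to -5.05 in knockout and -5.30 to -4.89 in wild type, an overlap (difference -0.03, adjusted p = 1). The lowest level counted as above background was -6.12 to -5.58 on knockout and -5.97 to -5.79 on wild-type arrays. Cyp27b1 lay close to it in both genotypes, so a lower level could hardly have been seen. Of 11 vitamin D metabolism genes tested, 1 was lower without the block and 2 with it, 10 were below 0, and the median was -0.08 against 0.01 for all genes.

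S100g, Trpv6 and Atp2b1, which together take calcium in, carry it through the cell and pump it out in the classical path of intestinal calcium absorption, were all lower in knockout. S100g, the calbindin that binds calcium in the cell, stood at -1.38, -1.12 and -1.33 in knockout and at 7.10, 6.94 and 7.27 in wild type. It was above background on all 6 arrays, and the spread within each genotype was small beside the gap. The difference was -8.37 (SE 0.14, adjusted p = 2.28e-07), a level 332-fold lower in knockout, and the gene's other probe gave -8.36.

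Trpv6, the channel through which calcium enters from the lumen, was at -2.45, -1.56 and -3.51 in knockout and at 2.93, 1.22 and 2.35 in wild type. The groups did not overlap, and the difference was -4.67 (SE 0.55, adjusted p = 0.022). Its call ended without knockout replicate 1 or 3 (adjusted p = 0.0753 and 0.0972) or wild-type replicate 1 or 3 (0.0786 and 0.0932), with differences of -4.70 to -4.17, and narrowly without the filter on dim probes (0.0512) or without a variance trend (0.0607). Atp2b1, the pump that moves calcium out across the basolateral membrane, was at 1.24, 1.49 and 1.52 in knockout and at 3.25, 3.13 and 3.44 in wild type. Its difference was the smallest of the 3 at -1.85 (SE 0.15, adjusted p = 0.00357), and a second probe gave -1.94. Of 21 calcium and phosphate transport genes tested, these 3 passed, 11 were below 0 and the median was -0.02 (0.02 under normexp, another background correction), so the other members lay around 0. The next by p, the claudin gene Cldn15, stood at -0.42 (adjusted p = 1).

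Slc30a10, which exports manganese from cells, stood at -5.23, -7.53 and -2.77 in knockout and at 2.83, 2.49 and 3.41 in wild type. The wild-type arrays lay close together and the knockout arrays were spread, with replicate 2 not above background. The difference was -8.09 (SE 1.01, adjusted p = 0.0287). Its call ended without knockout replicate 1 (0.0947) or wild-type replicate 1, 2 or 3 (0.112, 0.141 and 0.101), while the difference stayed between -8.30 and -7.84. It also ended without the filter (0.0625) or without a variance trend (0.0773). Slc39a8, which brings manganese and zinc into cells, was at 0.70, 1.12 and 1.23 in knockout and 2.33, 2.54 and 2.60 in wild type. That difference of -1.47 (SE 0.18, adjusted p = 0.0227) ended without any 1 array, with adjusted p of 0.0557, 0.0869 and 0.0913 for knockout replicates 1 to 3 and 0.0654, 0.178 and 0.101 for wild-type replicates 1 to 3, and with median scaling (0.0564) or no variance trend (0.0654). Of 34 genes of metal ion transport these 2 passed, and the list's median was -0.04. Slc30a2 and Slc30a1, zinc exporters and the next by p, stood at -0.86 and -0.42 (adjusted p = 0.562 and 1).

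The promoters of S100g, Slc30a10 and Trpv6 are shown because these differed most among the called genes of the calcium and metal ion transport lists. That of Tm4sf5 is shown because it alone among the promoters searched of lower genes held the paired motif below. Each runs from 250 bases before to 50 after the gene's start, from RefSeq on GRCm38.p6, 5′ to 3′ along the gene. Capitals mark the half-sites of 6 letters bound by nuclear receptors, on either strand, and marks can overlap. The letters searched were AGGTCA or GGGTCA, with T allowed in place of the third letter and G in place of the fifth.
S100g, chrX:162964550-162964849 (minus strand): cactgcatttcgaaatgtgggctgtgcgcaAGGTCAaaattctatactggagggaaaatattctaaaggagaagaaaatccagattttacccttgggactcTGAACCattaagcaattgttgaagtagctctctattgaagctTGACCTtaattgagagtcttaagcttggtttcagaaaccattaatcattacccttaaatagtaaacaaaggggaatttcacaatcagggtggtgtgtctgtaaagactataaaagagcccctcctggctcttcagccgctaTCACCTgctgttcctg
Slc30a10, chr1:185454598-185454897 (plus strand): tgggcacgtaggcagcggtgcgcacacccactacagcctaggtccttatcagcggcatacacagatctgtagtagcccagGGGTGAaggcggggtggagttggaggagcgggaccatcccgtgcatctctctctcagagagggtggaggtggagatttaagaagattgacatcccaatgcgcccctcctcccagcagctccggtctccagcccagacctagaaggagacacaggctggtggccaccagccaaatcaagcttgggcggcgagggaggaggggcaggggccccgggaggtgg
Trpv6, chr6:41636356-41636655 (minus strand): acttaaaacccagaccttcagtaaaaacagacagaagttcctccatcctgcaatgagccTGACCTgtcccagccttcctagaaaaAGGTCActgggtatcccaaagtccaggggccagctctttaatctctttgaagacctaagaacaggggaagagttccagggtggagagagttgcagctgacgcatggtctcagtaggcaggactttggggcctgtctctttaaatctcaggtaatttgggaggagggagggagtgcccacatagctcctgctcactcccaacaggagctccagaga
Tm4sf5, chr11:70505024-70505323 (plus strand): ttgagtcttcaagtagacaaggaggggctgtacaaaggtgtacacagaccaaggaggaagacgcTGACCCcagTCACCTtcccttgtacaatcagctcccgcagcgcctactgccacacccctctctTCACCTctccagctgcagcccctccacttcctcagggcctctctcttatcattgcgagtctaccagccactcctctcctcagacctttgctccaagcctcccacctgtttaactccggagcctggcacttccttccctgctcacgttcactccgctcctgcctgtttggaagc

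A vitamin D response element is classically a direct repeat of this half-site with 3 bases between. Of the 38 lower genes with a symbol, 25 had a promoter in the table, and 0 of the 25 held such a repeat. It was in 79 of 27025 promoter genes in all (0.292%) and in 29 of the 11822 tested ones (0.245%). A repeat this rare is unlikely in any 25 promoters, so the 0 says little. A single half-site was in 22 of the 25 (88.0%), against 69.4% of all promoter genes and 66.3% of the tested ones. Among the 70 genes with a promoter that were lower with the replicate block, 1 held the repeat, Tm4sf5, a tetraspan membrane protein gene at -1.22 (adjusted p = 0.0167 with the block and 0.251 without, and 0.157 with the block but without replicate 1). No match says only that these letters are not in this window.

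**Figure D2:**
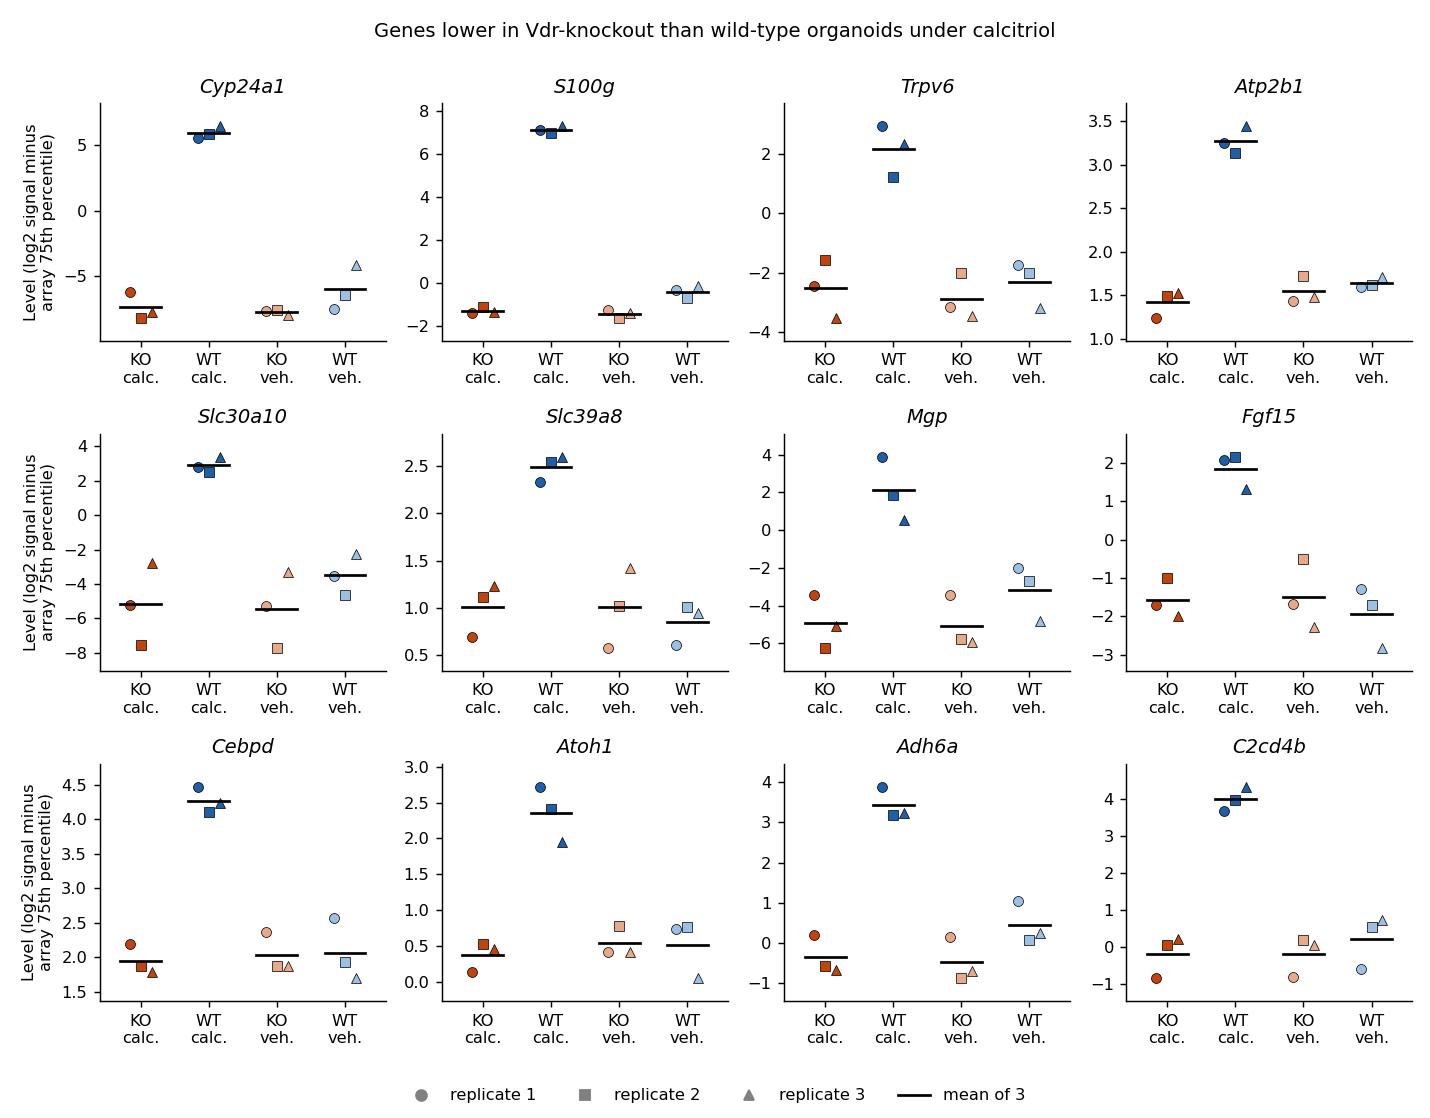
Level of 12 genes on each array (log2 signal minus the array's 75th percentile), with knockout calcitriol, wild-type calcitriol, knockout vehicle and wild-type vehicle from left to right in each panel. Symbols are replicates 1 to 3 and bars are means of 3; the scale differs between panels. In each panel the 3 wild-type calcitriol arrays lie above the other 9, as for S100g at 6.94 to 7.27 against -1.60 to -0.15.

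Mgp, which encodes an inhibitor of soft tissue calcification, stood at -3.45, -6.24 and -5.08 in knockout and at 3.90, 1.89 and 0.55 in wild type. The groups did not overlap, although both were spread, and knockout replicate 2 was not above background. The difference was -7.04 (SE 0.91, adjusted p = 0.0334), and its call ended without knockout replicate 2 or 3 (0.106 and 0.21) or wild-type replicate 1 or 2 (0.0641 and 0.181). It also ended with slide as a block (0.0502), without the filter (0.0774) or without a variance trend (0.0942). Of 14 mineralization genes tested Mgp was the 1 that passed, 11 were below 0, and the median was -0.20, though -0.07 under normexp background correction. Ank, which exports pyrophosphate, another inhibitor of mineral, stood at -0.84 and passed only with the replicate block (adjusted p = 0.0339, and 0.28 and 0.126 without replicate 1 or 2).

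Spon2, Cthrc1, Cbln1 and Klk11, which encode secreted proteins, were lower in knockout. Spon2, a matrix protein, was at -2.75, -3.27 and -3.62 in knockout and 2.36, 0.72 and -0.18 in wild type (difference -4.18, SE 0.58, adjusted p = 0.0466). Cthrc1, a secreted collagen repeat protein, was above background on no knockout array and all 3 wild-type arrays, and was at least 3.88-fold lower in knockout in the processed signal (adjusted p = 0.0152), but its difference was -0.65 under normexp (0.468). Cbln1, known as an organizer of synapses, was likewise detected only on wild-type arrays, at -0.13, -1.28 and -2.19, and was at least 25.1-fold lower in knockout in the processed signal (adjusted p = 0.0174), with a difference of -2.19 under normexp (0.101). Klk11, a secreted serine protease, was at -4.86, -4.67 and -6.13 in knockout, replicate 3 not above background, and 0.10, -0.44 and -2.01 in wild type (difference -4.43, SE 0.59, adjusted p = 0.0375). It was the 1 lower gene of 24 kallikrein and protease inhibitor genes tested, whose median was -0.13 but -0.02 under normexp. Slpi, an inhibitor of neutrophil elastase, passed in that list only with the block, at -1.66 (adjusted p = 0.0264, and 0.132 without replicate 1).

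The calls of Spon2, Cthrc1, Cbln1 and Klk11 each ended without some single arrays. That of Spon2 ended without knockout replicate 1, 2 or 3 (0.0947, 0.179 and 0.263) or wild-type replicate 2 (0.219). That of Cthrc1 ended without knockout replicate 2 or 3 (0.0552 and 0.0953) or wild-type replicate 1 or 2 (0.0555 and 0.105), and that of Cbln1 without the same 4 arrays (0.0629, 0.122, 0.0555 and 0.105). That of Klk11 ended without knockout replicate 1, 2 or 3 (0.0934, 0.0922 and 0.153) or wild-type replicate 1 or 2 (0.125 and 0.223). The Klk11 call also ended under normexp (-2.60, adjusted p = 0.0628), quantile normalization (0.0575), slide as a block (0.0769), mouse as a random effect (0.0728), no filter (0.0925) and no variance trend (0.0939). That of Spon2 ended under normexp (-3.26, 0.0825), quantile normalization (0.0643), a stricter filter that asks for signal above background on all 6 arrays (0.0507), no filter (0.104) and no variance trend (0.118). That of Cthrc1 ended with slide as a block (0.147) and mouse as a random effect (0.066).

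Fgf15, an intestinal hormone that tells the liver to make less bile acid, stood at -1.70, -1.01 and -1.98 in knockout and at 2.06, 2.16 and 1.32 in wild type. The gap exceeded the spread of either group, with a difference of -3.41 (SE 0.31, adjusted p = 0.0076). Its call ended only without wild-type replicate 2 (0.0524, difference -3.26). Of 16 bile acid genes tested it was the 1 that passed, the list's median was 0.04, and the bile acid binding protein gene Fabp6 stood at 0.59 (adjusted p = 1).

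Adh6a, Adh1, Pla2g7 and Mgll, which encode enzymes of alcohol, retinol and lipid metabolism, were lower in knockout. Adh6a was at 0.20, -0.58 and -0.68 in knockout and 3.88, 3.17 and 3.22 in wild type (difference -3.77, SE 0.28, adjusted p = 0.0028). Adh1, which also oxidizes retinol, was at 5.09, 4.66 and 4.76 in knockout and 6.84, 6.15 and 6.28 in wild type, without overlap (difference -1.59, SE 0.20, adjusted p = 0.0297). These 2 passed of 43 xenobiotic enzymes and efflux pumps, whose median was -0.02, and the carboxylesterase gene Ces2a passed only with the block, at -2.05 (adjusted p = 0.0266, and 0.0725 without replicate 1). Pla2g7, which inactivates platelet-activating factor, was at -5.47, -3.57 and -5.21 in knockout, replicate 1 not above background, and 1.30, 0.63 and -0.26 in wild type (difference -5.31, SE 0.56, adjusted p = 0.0152). A second Pla2g7 probe gave -4.02, and normexp gave -3.36 (0.00505). Mgll, which cleaves monoacylglycerols, was above background on no knockout array and was at least 17.5-fold lower there in the processed signal (adjusted p = 0.0172). Its difference was -1.89 under normexp (0.0825), and its probes disagreed, with -1.93 and -4.21 for the other 2.

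Adh6a kept its call without any 1 array. That of Adh1 ended without knockout replicate 2 or 3 (0.123 and 0.178) or wild-type replicate 1, 2 or 3 (0.0555, 0.102 and 0.0922), without the filter (0.0645) or without a variance trend (0.108). That of Pla2g7 ended without knockout replicate 3 (0.1) or wild-type replicate 1 or 2 (0.0555 and 0.102), and that of Mgll without these and knockout replicate 2 (0.115, 0.071, 0.105 and 0.0742) and with slide as a block (0.11).

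The transcription factor genes Cebpd and Atoh1 were lower in knockout. Cebpd, a C/EBP factor induced early by hormones and cytokines, stood at 2.19, 1.87 and 1.79 in knockout and at 4.47, 4.10 and 4.23 in wild type. Both groups were tight and the difference was -2.32 (SE 0.16, adjusted p = 0.00204). It was the 1 lower gene of 32 C/EBP and immediate early genes, whose median was 0.21. Atoh1, which commits crypt cells to secretory fates, stood at 0.13, 0.53 and 0.46 in knockout and at 2.72, 2.41 and 1.95 in wild type. The difference was -1.98 (SE 0.22, adjusted p = 0.0172), and the call ended without knockout replicate 1, 2 or 3 (0.0595, 0.0593 and 0.1) or wild-type replicate 1 or 2 (0.0555 and 0.118).

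Atoh1 was the 1 goblet or deep crypt secretory gene of 37 tested that passed, and 26 of the 37 were below 0 (70.3%, against 47.4% of all genes) with a median of -0.15. With the replicate block 5 passed. Mptx1, a pentraxin, was at -2.54, -2.88 and -4.31 in knockout and 1.20, -0.14 and -0.39 in wild type, and its difference of -3.47 had an adjusted p of 0.00371 with the block and 0.0917 without. Bcas1 and Rep15, both marker genes of goblet cells in mouse colon, stood at -1.19 and -1.31 (adjusted p = 0.0057 and 0.00752 with the block, 0.49 and 0.225 without). Best2, a bicarbonate channel of colonic goblet cells, stood at -2.38 (adjusted p = 0.0486 with the block and 0.87 without), with knockout replicate 1 at -0.13 and wild-type replicate 3 at 0.14. These 4 blocked calls ended without replicate 1, at 0.0541 for Mptx1, 0.114 for Bcas1, 0.114 for Rep15 and 0.163 for Best2. Muc2, the main goblet cell mucin, did not pass, at 1.57, 1.76 and 2.05 in knockout against 2.30, 2.58 and 2.09 in wild type (difference -0.53, adjusted p = 0.973). In these bulk cultures fewer cells of a type and less RNA per cell cannot be told apart.

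H2-Q1, a class I antigen gene, stood at 1.41, -0.18 and 0.39 in knockout and at 4.59, 3.92 and 4.52 in wild type. The groups did not overlap, and the difference was -3.80 (SE 0.38, adjusted p = 0.0129). The call ended without knockout replicate 3 (0.0972) or wild-type replicate 1 (0.0555) and with slide as a block (0.0644), and since class I genes are closely alike in sequence, signal from another of them on this probe was not tested. Of 46 interferon and antigen presentation genes tested, H2-Q1 passed, 38 were below 0 (82.6%) and the median was -0.20, though -0.13 under normexp. For all genes these were 47.4%, 0.01 and 0.04. This lean was not particular to the list, as 81.8% of 11 endothelial, neural and glial genes were below 0 too (median -0.19, and -0.03 under normexp). The others of the interferon list were small differences, with the RNA sensor gene Ddx58 at -0.63 (adjusted p = 0.361). It passed with the block (0.0459), but not without replicate 1 or 2 (0.353 and 0.174), and the interferon-induced genes Oas1a and Isg15 stood at -0.50 and -0.82 (adjusted p = 0.876 and 1). Among 31 epithelial defence genes none passed without the block, while 4 lower and 2 higher passed with it. The lectin gene Itln1 was one of the 4, at 1.58, -0.11 and 0.68 in knockout and 4.04, 2.84 and 2.32 in wild type (difference -2.35, adjusted p = 0.0132 with the block, 0.347 without, and 0.123 with the block but without replicate 1).

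C2cd4b, known as a gene induced by inflammatory cytokines in human endothelial cells, was at -0.83, 0.06 and 0.22 in knockout and 3.68, 3.99 and 4.34 in wild type (difference -4.18, SE 0.30, adjusted p = 0.00204). Gdpd5, a glycerophosphodiester phosphodiesterase gene, was at 0.68, 0.36 and 0.30 in knockout and 2.96, 2.79 and 2.76 in wild type (difference -2.39, SE 0.15, adjusted p = 0.00163). Both kept their call without any 1 array, and C2cd4b had a second probe at -4.14.

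The rule for naming genes covers 21 of the 38 lower genes with a symbol. The other 17, listed after their values were seen, are C2cd4a, the homologue of C2cd4b, at -2.92, Ugt2b35, a glucuronosyltransferase, at -3.23, Srcin1, Pla2g3, Gm2061, Slc25a45, Trim47, Ttyh1, Atoh8, Srgap3, Selenom, Gm8909, Ceacam12, Greb1l, Lrrc26, Mctp2 and Pdgfa. Pdgfa, a growth factor subunit, had the smallest difference of the 46, at 5.27, 5.14 and 5.33 in knockout and 6.01, 6.00 and 6.18 in wild type (-0.82, SE 0.11, adjusted p = 0.0466), a call that ended without any 1 array (0.0877 to 0.268), with slide as a block (0.0944), with the stricter filter (0.0555), without the filter (0.0953) and without a variance trend (0.218). Srcin1 was not above background on any knockout array and stood at -0.34 under normexp (adjusted p = 1), against -2.96, and also lost its call with all 12 arrays (0.095), with mouse as a random effect (0.169) and with slide as a block (0.347). Atoh8, Ttyh1 and Gm2061 lost theirs with all 12 arrays (0.184, 0.0998 and 0.0776) and with slide as a block (0.541, 0.379 and 0.2). Ceacam12 and Greb1l lost theirs without any 1 array, with slide as a block (0.0962 and 0.0809) and under normexp (0.115 and 0.0801). Mctp2 and Lrrc26 also lost theirs without any 1 array (0.0814 to 0.105 and 0.0523 to 0.2) and without a variance trend (0.0554 and 0.101). Of the fits without 1 array, Trim47 kept its call only without wild-type replicate 3 (0.0315). Gm8909 kept its own only without knockout replicate 1 (0.0121), and Srgap3 only without knockout replicate 3 (0.0452). Ugt2b35 and Slc25a45 narrowly lost theirs with all 12 arrays (both 0.0523), and Ugt2b35 also with slide as a block (0.0936). The 8 lower transcripts without a symbol include AK017151, at -5.01, -5.39 and -7.70 in knockout and 4.59, 4.26 and 4.29 in wild type. Knockout replicate 3 was not above background, so the fitted difference of -10.42 (SE 0.62, adjusted p = 0.00145, and -7.50 under normexp) rests in part on signal that was not detected. Overlapping probes at chr8:89996710-90049453 and chr8:90048940-90049461 (mm9, forward strand) were lower by -2.75 and -2.78 (adjusted p = 0.0157 and 0.022). Both calls ended without any 1 of the knockout arrays or without wild-type replicate 2, at 0.053 to 0.105 for the longer region and 0.075 to 0.147 for the other, which also ended without wild-type replicate 1 (0.0641), with slide as a block (0.139), with mouse as a random effect (0.0726) and without the filter (0.0552).

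The vitamin D response list, drawn up from known target genes of the receptor, held 9 of the 46. Of 38 members tested, those lower were Cyp24a1, S100g, Slc30a10, Mgp, Trpv6, Klk11, Fgf15, Cebpd and Atp2b1, 27 were below 0 (71.1%, against 47.4% of all genes) and the median was -0.18, though -0.06 under normexp. The list was chosen with results of these arrays known, so its direction is not independent evidence. With the replicate block Vdr itself made 10, and no member was higher in either fit. Across the lists a few genes moved far and most stayed near 0, as the plot of the lists' members shows.

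**Figure D3:**
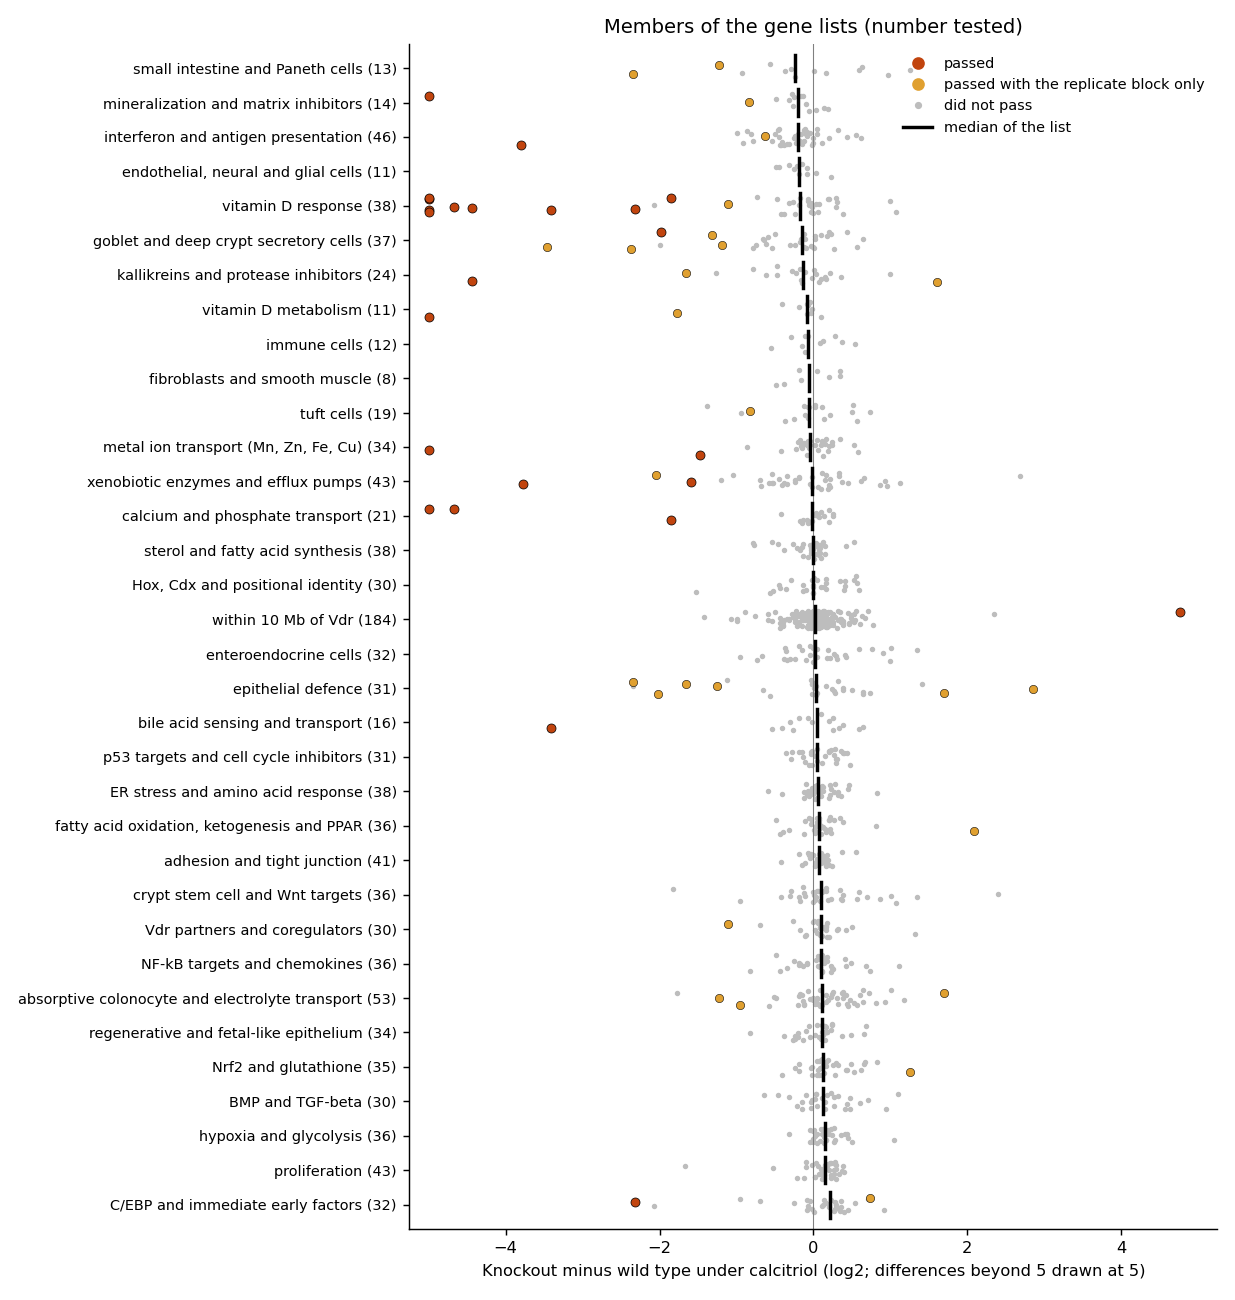
Knockout minus wild type under calcitriol (log2) for the members of each gene list, with the number tested in brackets; differences beyond 5 are drawn at 5. Red points passed, orange points passed only with the replicate number as a block, grey points did not pass, and the black bar is the list's median. The vitamin D response row holds 9 red points, all below 0, while no member of proliferation or of crypt stem cell and Wnt targets passed.

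Of 33 lists, 22 had no called gene, and 16 of these 22 had a median above 0. Of 43 proliferation genes 7 were below 0 (16.3%, against 47.4% of all genes) with a median of 0.15, against 0.01 for all genes. Of 36 hypoxia and glycolysis genes 6 were below 0 (16.7%), with a median of 0.15 that was 0.089 under quantile normalization. This lean was not particular to these lists. Unlike ones had it too, with 20.0% below 0 for Nrf2 and glutathione, 23.3% for Vdr partners and coregulators and 24.4% for adhesion and tight junction. Mki67, a marker of cycling cells, stood at 5.45, 5.67 and 5.77 in knockout and 5.06, 5.49 and 5.66 in wild type, with overlap (difference 0.23, adjusted p = 1). Of 36 crypt stem cell and Wnt target genes 24 were above 0 and 0 passed, without or with the block. Lgr5, the marker of crypt stem cells, was at 3.77, 3.59 and 4.06 in knockout and 3.55, 3.10 and 3.00 in wild type, without overlap (difference 0.59, adjusted p = 0.845, and 0.31 with the block). Ascl2, the stem cell transcription factor gene, was at 3.80, 4.50 and 4.65 in knockout and 3.15, 3.96 and 4.13 in wild type, with overlap (0.57, adjusted p = 1, and 0.0598 with the block). Krt20, a marker of mature colonocytes, overlapped between genotypes, with a difference of -0.18 (adjusted p = 1).

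Few genes were higher in knockout. Tmprss12, a membrane serine protease gene, was at -2.91, -3.00 and -2.21 in knockout and was above background on no wild-type array. It was at least 9.15-fold higher in knockout in the processed signal (adjusted p = 0.0028, and a difference of 1.40 under normexp) and kept its call without any 1 array. It is on the chromosome of Vdr, within 10 Mb of it in the RefSeq table, and was the 1 called gene of 184 tested in that window, whose median was 0.01. In vehicle too it was above background on all 3 knockout arrays and on no wild-type array. Ncf4, a subunit of the phagocyte NADPH oxidase, was at -1.29, -1.38 and -1.30 in knockout and -3.51, -3.02 and -4.12 in wild type (difference 2.23, SE 0.29, adjusted p = 0.0329). Ms4a18 was at -1.49, -1.51 and -1.49 in knockout and -2.77, -3.37 and -3.25 in wild type (difference 1.64, SE 0.22, adjusted p = 0.0375). Both calls ended without any 1 array, at 0.0524 to 0.156 for Ncf4 and 0.057 to 0.223 for Ms4a18, and without the filter (0.089 for Ncf4 and 0.104 for Ms4a18). That of Ncf4 also ended with all 12 arrays (0.0572), mouse as a random effect (0.0565), slide as a block (0.209) and no variance trend (0.0554). The unnamed transcript AK015583 was at least 6.06-fold higher in the processed signal (adjusted p = 0.0109). Its call ended without wild-type replicate 2 (0.0773), with all 12 arrays (0.197), mouse as a random effect (0.335), slide as a block (0.582) and normexp (0.0864).

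With the replicate block only, 6 more named genes were higher without overlap. Ttr, the carrier of thyroid hormone and retinol, was at -0.32, -1.25 and -1.94 in knockout and -2.59, -3.73 and -3.76 in wild type (difference 2.19, adjusted p = 0.00937 with the block, 0.306 without). Ifitm3, which restricts entry of viruses, was at 1.80, 1.97 and 1.60 in knockout and 0.59, 1.03 and 0.17 in wild type (difference 1.19, adjusted p = 0.0148 with the block, 0.212 without). The others are A930003A15Rik (2.02), Rtn4rl1 (1.62), the steroid enzyme gene Hsd3b3 (0.89) and the immediate early gene Egr1 (0.73), with adjusted p of 0.0277 to 0.0348 with the block. All 6 blocked calls ended without replicate 1, at 0.112 to 0.288, and all but those of Ttr and Ifitm3 ended without replicate 2, at 0.0878 to 0.154.

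**Figure D4:**
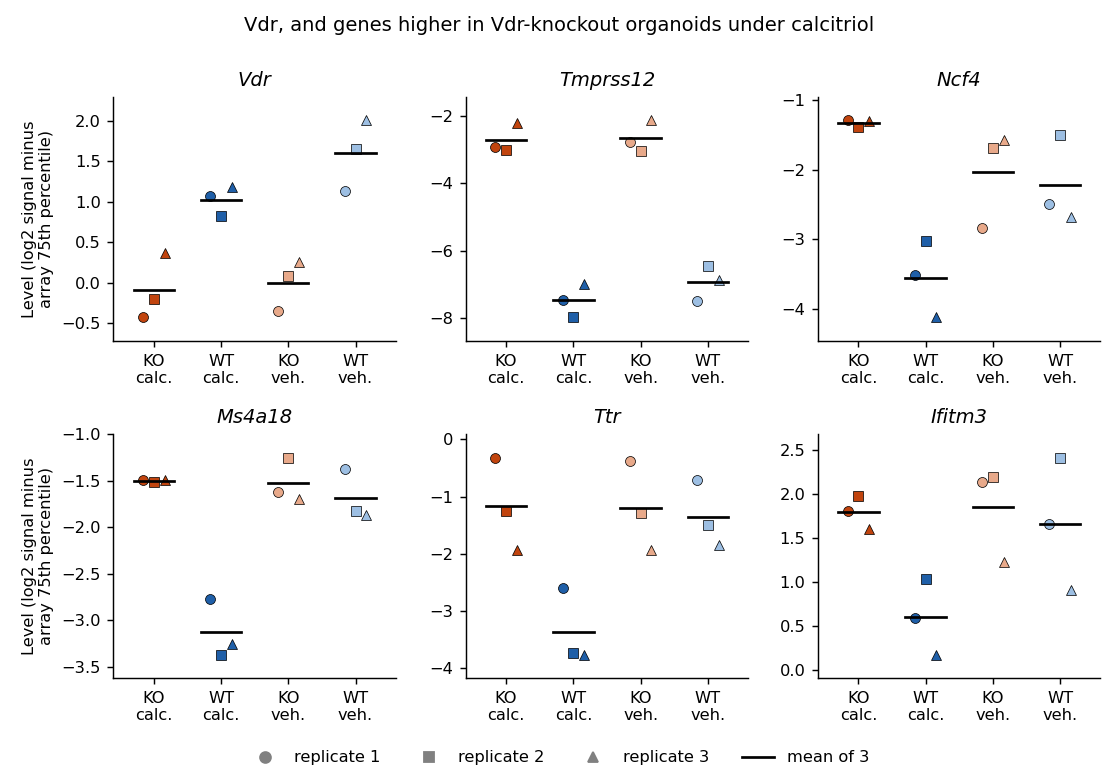
Level of Vdr and of 5 genes higher in knockout on each array (log2 signal minus the array's 75th percentile), with knockout calcitriol, wild-type calcitriol, knockout vehicle and wild-type vehicle from left to right. Symbols are replicates 1 to 3, bars are means of 3 and scales differ between panels. Vdr and Tmprss12 separate the genotypes in both treatments, while for Ms4a18 the wild-type calcitriol arrays, at -3.37 to -2.77, lie below the other 9.

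Vehicle cultures of the same mice give the genotype difference without added hormone, but there genotype is mixed with slide. Knockout vehicle replicates 1 and 2 shared a slide, and wild-type vehicle replicates 1 and 2 shared another. Spots well above background ran from 54.9% in knockout vehicle replicate 1 to 72.8% in wild-type vehicle replicate 2. A vehicle difference can therefore hold a slide or array difference, which was not separated. The 46 lower genes were chosen for their difference under calcitriol, which by itself makes a smaller one in vehicle likely, so their vehicle values are a description. The median knockout minus wild-type difference of the 46 was -2.77 under calcitriol and -0.42 in vehicle. For the 31 of them above background on all 12 arrays it was -2.32 under calcitriol and -0.31 in vehicle. In vehicle 39 of the 46 were below 0, and 8 had genotypes that did not overlap, while 5.74% of all genes lay without overlap lower in knockout. S100g was 1 of the 8, at -1.01 in vehicle. Cyp24a1 was above background on no knockout and 1 wild-type vehicle array, so its vehicle difference was not measured. Fgf15 stood at 0.45 in vehicle, with the genotypes overlapping.

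The calcitriol difference was tested against the vehicle difference over all 12 arrays, and 7 genes passed (0.029%), all among the 46. This test took the arrays of a mouse as independent. It contains the calcitriol difference by which the 46 were called, so an overlap with them is in part built in, also with mouse as a block. S100g had -7.37 (SE 0.24, adjusted p = 3.7e-08), Atp2b1 -1.76 (0.00578), Gdpd5 -2.13 (0.00578) and Cebpd -2.29 (0.0417), each above background on all 12 arrays. The transcript at chr3:90425270-90435820 also passed. Cyp24a1 (0.00136) and AK017151 (0.00578) passed too, but neither was above background on any knockout vehicle array, so the size of that change was not measured for them. With mouse as a block 58 passed (0.241%), 53 of them below 0, and these hold 29 of the 46, among them Slc30a10 (0.00262), Mgp (0.00698), Trpv6 (0.04), Fgf15 (0.00268) and Atoh1 (0.00283). None of the 4 higher genes passed with or without the mouse block. With slide as a block 1 gene passed, S100g. The 2 vehicle groups lie partly on other slides, also than each other, so slide is not well separated from treatment or from genotype in vehicle.

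**Figure D5:**
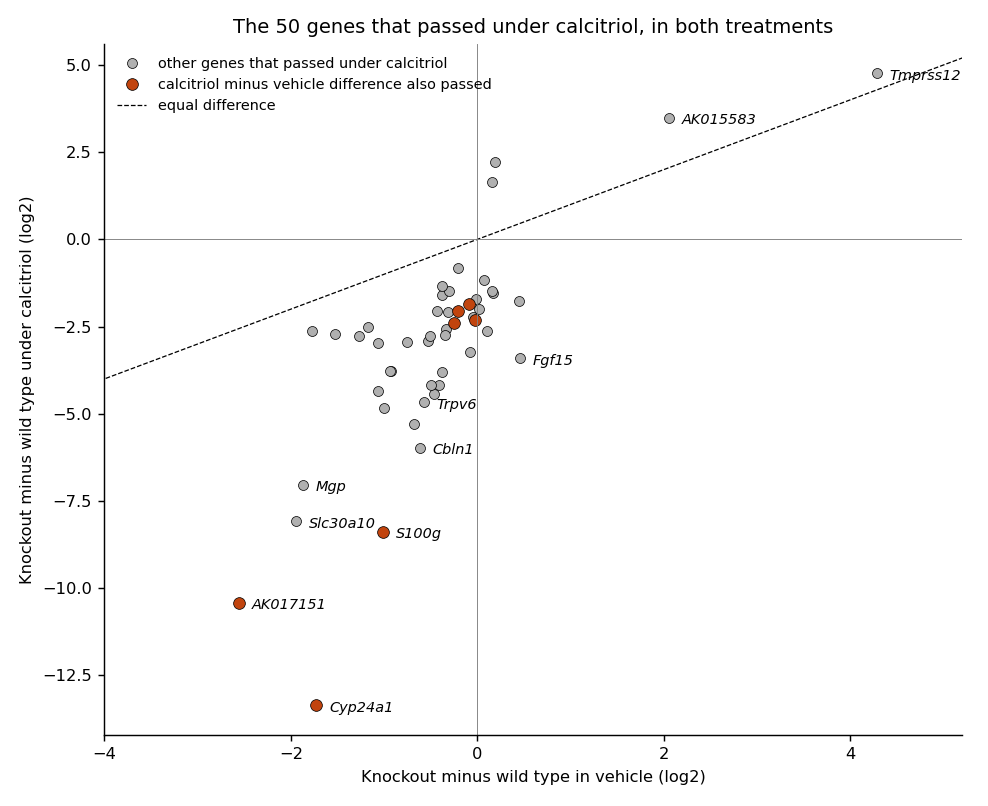
Knockout minus wild type in vehicle (x axis, log2) against the same under calcitriol (y axis, log2) for the 50 genes that passed under calcitriol. Red points also passed the test of the calcitriol against the vehicle difference, and the dashed line marks equal differences. The 46 lower genes all lie below the line. Positions of genes not above background in a group, among them Cyp24a1, AK017151 and Tmprss12, are fitted values and not measured sizes.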

How the data were processed

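RNA of each culture was hybridised to a 1-colour Agilent array annotated on mm9, per the file headers. Per the file headers, the authors deposited linear intensities of every spot from Feature Extraction 11.5.1.1, background-subtracted but not normalized between arrays. Here, without control and outlier spots, log2 of the processed intensity was taken, each array's 75th percentile was subtracted and spots of a probe were averaged. Of 55518 probes with a value on every array, 27946 had a symbol, matched by accession to a RefSeq table on GRCm38.p6. Probes well above background on all 3 arrays of either calcitriol group were kept, and the probe with the highest mean over the 12 arrays stood for its gene. This gave 24113 genes, 14834 with a symbol.

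The 6 calcitriol arrays were fitted with limma 3.58.1 in R 4.3.3 (lmFit, eBayes with a variance trend, 2-sided moderated test), with Benjamini-Hochberg adjustment over all genes and a threshold of 0.05. The fit was run on simulated data with independent noise and no pairing or slide difference, which checks the computation and not the calls. The replicates are different mice. Deviations from the group means of same-numbered knockout and wild-type arrays correlated at 0.43, 0.41 and 0.33 across genes. Those of differently numbered arrays correlated at -0.30 to -0.05. Deviations cancel within a group, so these negative values follow in part from the positive ones. On the same-numbered values the replicate number was taken to pair the arrays and was the block of a second fit, a choice made on these same data. Same-numbered mice also share the labelled age. The precision is limited by 3 arrays per group. An "at least" fold sets the brighter group's mean against the dimmer group's, where each dim array counts with the lowest level above background if its own is lower.

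Genes were named by a rule: with a symbol, not sex-linked, no overlap between groups, above background in the higher group, and the 15 largest differences in each direction, filled from the blocked fit where fewer than 10 passed. Vdr, a short set of hormone target, stem cell and maturation genes, and up to 4 genes by smallest p in each list were added. The comparison, the lists and the rule were chosen with earlier results of these data known. Alternatives were other scalings, normexp, other filters, all 12 arrays, slide, every probe, no variance trend, and each array left out.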

Additional observations from a re-analysis of the deposited data

Results flagged for a closer look

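For 7 genes the knockout minus wild-type difference under calcitriol differed from that in vehicle, by limma's test of the difference between the differences over all 12 arrays. Cyp24a1 had a fitted -11.63 (SE 1.03, adjusted p = 0.00136), which is no measured size, since it was above background on all 3 wild-type calcitriol arrays, 1 wild-type vehicle array and no knockout array. S100g had -7.37 (SE 0.24, adjusted p = 3.7e-08), with -8.37 under calcitriol and -1.01 in vehicle. The unnamed transcript AK017151 had a fitted -7.86 (SE 0.87, adjusted p = 0.00578), likewise no measured size, since it was above background on 2 knockout calcitriol arrays and on no knockout vehicle array. Cebpd had -2.29 (SE 0.32, adjusted p = 0.0417), with -2.32 under calcitriol and -0.03 in vehicle. Gdpd5 had -2.13 (SE 0.23, adjusted p = 0.00578), with -2.39 under calcitriol and -0.26 in vehicle. Atp2b1 had -1.76 (SE 0.19, adjusted p = 0.00578), with -1.85 under calcitriol and -0.10 in vehicle. The transcript at chr3:90425270-90435820 (mm9, forward strand) had -1.84 (SE 0.22, adjusted p = 0.0118), with -2.05 under calcitriol and -0.21 in vehicle. All 7 also passed with mouse as a block, and of the 7 only S100g passed with slide as a block (adjusted p = 8.96e-05). With slide as a block Cyp24a1 and AK017151 both had an adjusted p of 0.218 and the other 4 had 0.887.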

How the results depend on the processing

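The count of 46 lower genes was 30 without the filter on dim probes and 115 with the replicate block. Within the slide of 5 arrays, the same fit as without knockout replicate 3, it was 17. It ran from 15 to 32 when 1 array was left out. It was 31 to 51 with slide as a block, the stricter filter, median scaling, quantile normalization, no variance trend, normexp, all 12 arrays or every probe. The count of 4 higher genes was 2 with slide as a block, within the slide of 5, with the stricter filter and without the filter, 18 with the replicate block, and 1 to 3 without 1 array. The blocked counts of 115 and 18 ran from 29 to 399 and from 2 to 272 without 1 replicate number; a blocked fit of 2 pairs has little to estimate the spread from. The replicate block ended none of the 50 calls. The test of calcitriol against vehicle differences passed 7 genes, all among the 46 lower genes, an overlap that is in part built in. With mouse as a block it passed 58, 29 of them among the 46, and with slide as a block 1. Among single genes, 3 turned sign. Srcin1 stood at 0.21 without the filter, where another probe stands for the gene. Cyp27b1 stood at 0.15 under normexp and at -0.12 to 0.083 without 1 array, and Krt20 at -0.34 to 0.016, both without a call. The cause was not tested elsewhere. Normexp used the median spot signal and was chosen after seeing the files. The median of all genes was 0.01, 0.04 under normexp, -0.0005 under quantile normalization and 0.01 under median scaling.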

Other observations

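Gene families were looked at after the calls were seen, so their members were chosen on these values and no test was made. Of 16 phospholipase A2 genes tested, which release fatty acids from phospholipids, Pla2g7 and Pla2g3 were lower in knockout in limma, and Pla2g4f (-2.39), Pla2g2f (-1.74) and Pla2g5 (-1.25) were lower with the replicate block only. The 16 had a median of -0.46 and ran from -5.31 to 0.79, with 10 below 0. All 4 gasdermin C genes tested, of a family of pore-forming proteins, were below 0, with a median of -1.91. Gsdmcl-ps (-2.97) and Gsdmc3 (-2.33) passed with the block only, and a second Gsdmc3 probe gave a smaller difference of -0.94. These genes lie in 1 cluster and are alike in sequence, and whether a probe reads more than 1 of them was not tested. Of 17 class I antigen genes 14 were below 0 with a median of -0.17, and H2-M9 (-2.44) passed with the block beside H2-Q1. Of 3 alcohol dehydrogenase genes the third, Adh5, stood at -0.18.

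Of the 69 genes lower with the block only, 3 kept that call without any 1 replicate number. Among genes higher with the block only was Saa2, an acute-phase gene, at 2.54, 0.62 and -0.62 in knockout and -0.24, -2.77 and -3.01 in wild type. The genotypes overlapped although each replicate number was higher in knockout (difference 2.85, adjusted p = 0.00344 with the block, 0.863 without).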
